A study of Mus musculus with 4 samples.

Results

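The genes of glycolysis and of the transcriptional response to low oxygen were followed in cardiomyocytes derived from mouse embryonic stem cells. The set held 36 genes, 26 of glucose uptake, glycolysis and the handling of pyruvate and lactate, and 10 further genes known to respond to hypoxia. Each was found through the RefSeq accession of its array probes, and the brightest probe stood for the gene. All 36 were well above background on all 4 arrays, among 20726 features tested, of which 14993 were named genes.

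All samples were cardiomyocytes differentiated from CGR8, a mouse embryonic stem cell line, grown in low-glucose medium with 2% serum and lysed for total RNA. In 2 samples the cells had been transfected for 48 hours with a scrambled small interfering RNA (siScr 1 and siScr 2), and in the other 2 (siErbB4 1 and siErbB4 2) the RNA was directed at Erbb4, a receptor tyrosine kinase that binds neuregulins. The growth protocol also names incubations of 6 or 24 hours without saying which samples they apply to, and no source used here states separate cultures. The p-values therefore cover the spread of these 4 samples alone, which may be technical. Dye-labelled copy RNA made from 200 ng of RNA was hybridised to 1-colour Agilent arrays on 1 slide.

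The labels of the siErbB4 samples are not uniform. Their titles and their transfection field name ErbB4. The descriptions of both, however, speak of si-Scr, and ErbB5 stands in the source name of siErbB4 2. The Erbb4 probe had processed signals of 9.02 in siScr 1, 11.9 in siScr 2, 2.83 in siErbB4 1 and 15.0 in siErbB4 2, and it was above background on 1 of the 4 arrays. It was therefore too dim to check the labels, and the groups are called here by their titles. Between 64.8% and 68.5% of the probes on an array exceeded background clearly, and the 75th percentile of the signal was 878 to 989. Of 15 cardiomyocyte markers, 14 were above background on all 4 arrays, as were 12 of 12 pluripotency markers and 14 of 15 markers of fibroblasts and matrix. These are bulk samples, in which fewer cells of a type and less RNA per cell cannot be told apart.

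Glycolysis converts glucose to pyruvate in the cytosol. Glucose enters through GLUT transporters, hexokinase traps it as a phosphate, phosphofructokinase commits it to the pathway, and the later enzymes from triose phosphate isomerase to pyruvate kinase harvest ATP. Lactate dehydrogenase turns pyruvate into lactate, which leaves the cell through monocarboxylate transporters, whereas pyruvate dehydrogenase sends it to the mitochondria, a step that the PDK kinases block. Several steps are run by different isoforms, such as the muscle enzymes Pgam2 and Eno3 beside the widespread Pgam1 and Eno1. When oxygen is low, prolyl hydroxylases no longer mark the HIF alpha subunits for destruction by VHL, and HIF binds a short DNA core near many of these genes. Immature cardiomyocytes rely strongly on glycolysis, and oxidation of fatty acids becomes dominant as the heart matures.

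A form of the core that HIF binds, ACGTG, was searched on both strands (as ACGTG or CACGT) in the 250 bases before each transcription start, in RefSeq promoter sequences of assembly GRCm38.p6. Other forms of the core and other regions were not searched, so genes without a match may still hold a HIF core. The letters CACGTG, the E-box that other factors also bind, count as overlapping matches on both strands. Of the 36 genes, 32 had a sequence in the table. Slc2a3, Slc2a4, Ndrg1 and Hmox1 had none there. The sequences below belong to genes with a match, 5 with large and 2 with small differences, among genes with a match, between the arrays numbered 2 and 1, which are described further on. They are printed 5′ to 3′ on the gene's strand and end at the base before the start, with matches in capitals.
Bnip3 (chr7:138909507-138909756, minus strand): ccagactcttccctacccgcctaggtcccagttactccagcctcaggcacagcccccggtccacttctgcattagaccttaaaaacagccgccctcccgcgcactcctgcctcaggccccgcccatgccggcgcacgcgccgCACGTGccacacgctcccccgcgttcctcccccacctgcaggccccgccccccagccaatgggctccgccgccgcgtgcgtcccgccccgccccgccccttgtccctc
Slc16a3 (chr11:120948817-120949066, plus strand): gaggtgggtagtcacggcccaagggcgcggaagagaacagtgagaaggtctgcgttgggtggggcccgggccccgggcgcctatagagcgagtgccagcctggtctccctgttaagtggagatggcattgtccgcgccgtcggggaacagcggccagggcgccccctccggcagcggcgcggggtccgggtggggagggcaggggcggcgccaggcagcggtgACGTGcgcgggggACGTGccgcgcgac
Egln1 (chr8:124949255-124949504, minus strand): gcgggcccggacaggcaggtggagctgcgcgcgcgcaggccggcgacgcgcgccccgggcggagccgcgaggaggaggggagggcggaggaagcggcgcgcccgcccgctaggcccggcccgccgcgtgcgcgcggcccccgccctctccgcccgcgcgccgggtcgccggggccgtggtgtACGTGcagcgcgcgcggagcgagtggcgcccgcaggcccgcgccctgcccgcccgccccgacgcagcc
Pgk1 (chrX:106186850-106187099, plus strand): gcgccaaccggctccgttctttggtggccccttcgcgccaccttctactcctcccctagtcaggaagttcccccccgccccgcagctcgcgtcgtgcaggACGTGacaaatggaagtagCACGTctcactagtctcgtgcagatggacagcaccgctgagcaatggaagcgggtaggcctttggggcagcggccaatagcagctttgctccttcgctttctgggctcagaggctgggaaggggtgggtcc
Ldha (chr7:46845554-46845803, plus strand): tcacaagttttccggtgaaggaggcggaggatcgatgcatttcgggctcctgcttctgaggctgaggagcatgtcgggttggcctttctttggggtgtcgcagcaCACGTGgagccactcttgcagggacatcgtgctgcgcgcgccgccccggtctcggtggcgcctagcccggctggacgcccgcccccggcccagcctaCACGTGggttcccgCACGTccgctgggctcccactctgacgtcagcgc
Hk2 (chr6:82774455-82774704, minus strand): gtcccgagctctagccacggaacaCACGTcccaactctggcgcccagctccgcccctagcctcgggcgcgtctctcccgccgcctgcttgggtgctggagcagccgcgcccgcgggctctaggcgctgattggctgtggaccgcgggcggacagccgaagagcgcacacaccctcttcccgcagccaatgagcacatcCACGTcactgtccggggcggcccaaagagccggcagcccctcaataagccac
Slc2a1 (chr4:119108495-119108744, plus strand): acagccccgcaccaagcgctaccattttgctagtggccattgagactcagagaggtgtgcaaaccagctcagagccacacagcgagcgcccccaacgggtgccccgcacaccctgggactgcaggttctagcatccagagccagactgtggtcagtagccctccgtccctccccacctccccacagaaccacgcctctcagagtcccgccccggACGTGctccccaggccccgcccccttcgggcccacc
These windows were chosen among those with a match, so that holding a match says nothing about the differences. The matches began at positions -108 and -107 in Bnip3, -27 and -14 in Slc16a3, -68 in Egln1, -150 and -131 in Pgk1, and -145, -144, -48, -47 and -34 in Ldha. In Hk2 they began at -226 and -52, and in Slc2a1 at -36.

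Across the set, 18 of 32 genes (56.3%) had a match before at least 1 of their starts, or 21 of 46 windows (45.7%). Over all RefSeq windows of the same length the share was 16.6%, and over those of genes tested here 20.5%. Counted by gene, the shares were 18.5% of all genes and 23.9% of tested genes. Among the glycolysis genes 11 of 24 had a match (45.8%), and among the hypoxia genes 7 of 8 (87.5%). The hypoxia genes were chosen as known to respond to hypoxia, so their share is not independent of that choice. The windows held a median of 14 CG dinucleotides in the set, 14 in the tested genes and 6 in all genes. Within the set the median was 14 for the glycolysis genes and 19 for the hypoxia genes, and the core itself contains a CG. The 18 genes with a match had a median log2 difference of 0.55 between the arrays numbered 2 and 1, and the 14 without had 0.64. The medians of the genes with and without a match thus lay close together. A match is a description of letters and not a bound site.

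**Figure D1:**
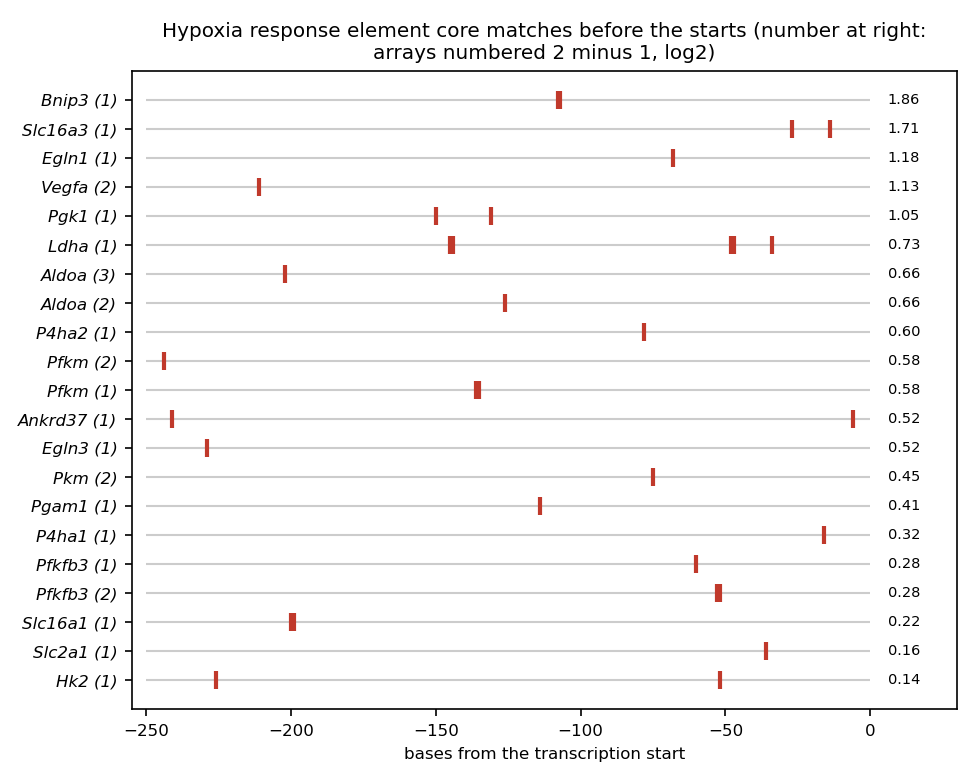
Matches to ACGTG, the form of the HIF core that was searched (vertical ticks, both strands), in the 250 bases before the transcription start (x axis, bases from the start) of the 21 windows with a match, with the start's number in brackets. Rows run from the largest difference between the arrays numbered 2 and 1 at the top (Bnip3, 1.86, printed at right on the log2 scale) to the smallest among genes with a match (Hk2, 0.14), and windows without a match are not drawn.

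The comparison the study names, siErbB4 against siScr, asks which genes differ with an RNA directed at Erbb4. Whether Erbb4 was lowered could not be checked, its probe being too dim. In the glycolysis and hypoxia genes no difference passed the test. Most glycolysis genes lay slightly lower in siErbB4 (20 of 26, median log2 difference -0.11) and most hypoxia genes slightly higher (8 of 10, median 0.18), beside a median of -0.01 over all features. Of the 20726 features 10953 were lower and 9773 higher. The difference was 0.58 or more in size for 1 gene, Egln3. Levels are given as scaled log2 signals, in which 0 is the 75th percentile of the array, the signal of a fairly bright probe.

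A gene was called where limma's p, adjusted by Benjamini-Hochberg over all features, was under 0.05. Of the 36 genes 0 were called, and without adjustment 0 reached that threshold. Over all features 0 of 20726 (0%) were called, the lowest adjusted p being 0.569, and 365 passed without adjustment. The groups did not overlap at 5 genes, beside 29.0% of all features: siErbB4 was the higher at 4 (Slc2a1, Slc2a3, Hk2 and Hmox1), beside 13.0%, and the lower at 1 (Slc16a1), beside 15.9%. Exact permutation of 2 against 2 arrays cannot give a two-sided p below 0.333. Arrays left out in turn moved the median of the glycolysis genes between -0.44 and 0.32 and that of the hypoxia genes between -0.34 and 0.63, so that both medians changed sign.

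Of the glucose transporters, Slc2a1 and Slc2a3 were without overlap between the groups. Slc2a3, which encodes the high-affinity transporter GLUT3, was measured at 2.13 and 2.48 in siScr 1 and 2 and at 2.57 and 3.03 in siErbB4 1 and 2. Both siErbB4 arrays were the higher, and the log2 difference of 0.50 ± 0.24 (SE, n = 2 per group) had the lowest unadjusted p of the set, 0.109, with a limma adjusted p of 1.00 and a 95% interval of -0.17 to 1.16. Slc2a1, the widespread transporter GLUT1, lay at 4.66 and 4.86 in siScr and at 4.93 and 5.04 in siErbB4, a difference of 0.22 ± 0.15. The insulin-regulated transporter of muscle and fat, GLUT4 (Slc2a4), had 2.11 and 2.74 in siScr and 2.12 and 3.0 in siErbB4, where the groups overlapped. Hk2, the mitochondria-bound hexokinase of muscle, was higher in both siErbB4 arrays by a small margin in siErbB4 1, at 1.87 and 1.80 against 1.89 and 2.24.

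Hmox1, heme oxygenase, breaks down heme and is induced by HIF and by the oxidative stress factor NRF2. It was measured at 1.67 and 1.54 in siScr and at 2.47 and 1.78 in siErbB4. The groups did not overlap, and siErbB4 1 was the highest array, with a difference of 0.52 ± 0.28 and an interval of -0.25 to 1.29. The lactate and pyruvate carrier Slc16a1 (MCT1) was dim throughout, at -4.13 and -3.80 in siScr and -4.29 and -4.19 in siErbB4, a difference of -0.27 ± 0.17. Egln3, a HIF prolyl hydroxylase that is itself a HIF target, had the largest difference, 0.59 ± 0.55. It rested on siErbB4 2 at -1.39, since siErbB4 1 at -2.84 lay between the siScr arrays at -2.50 and -2.92.

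For the enzymes that carry glucose 6-phosphate to pyruvate (Gpi1 to Pkm, without the regulator Pfkfb3 at 0.32) the differences between the siRNA groups lay between -0.45 (Pfkl) and -0.04 (Pgam2), and none of these enzymes separated the groups. Gapdh, the glyceraldehyde phosphate dehydrogenase often used as a reference gene, had a difference of -0.16 ± 0.16, and Pkm, pyruvate kinase of muscle and proliferating cells, had -0.31 ± 0.33. The intervals were wide: for Bnip3 the 95% interval ran from -2.58 to 2.84, and for Slc16a3 from -2.91 to 2.36. Changes of several fold in both genes lie inside these intervals, from 2 arrays per group.

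**Figure D2:**
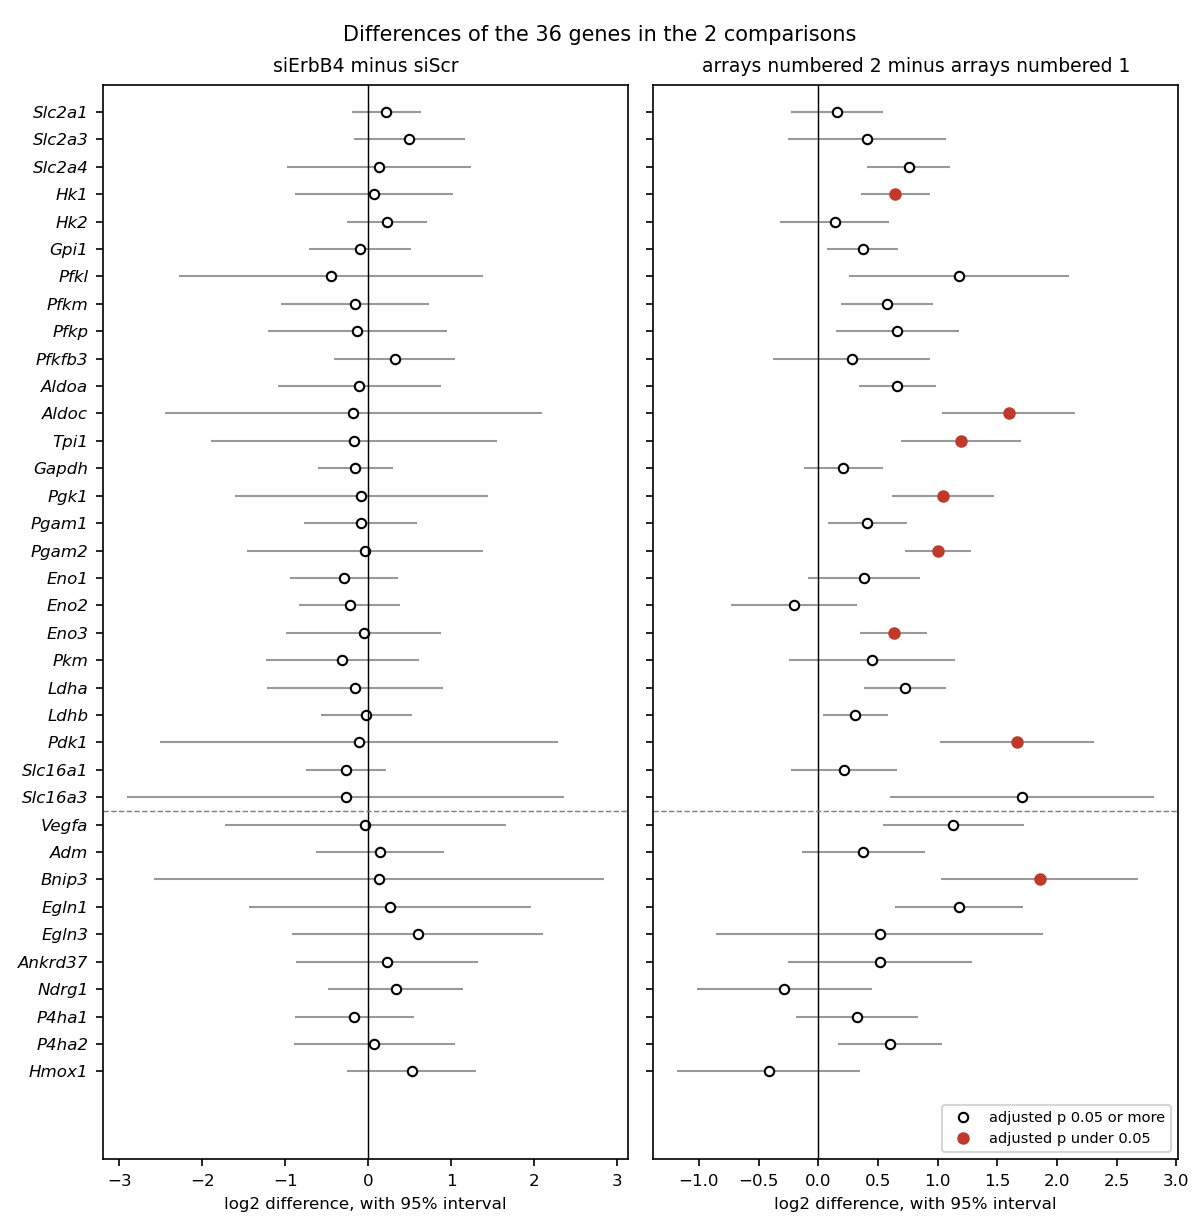
Log2 differences of the 36 genes (points) with limma's 95% intervals (bars), siErbB4 minus siScr at left and the arrays numbered 2 minus those numbered 1 at right, n = 2 arrays on each side. The dashed line separates the 26 glycolysis genes from the 10 hypoxia genes, filled points have an adjusted p under 0.05, and all 8 of them lie at right.

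The titles number the samples 1 and 2 within each siRNA group, and the spread inside the groups followed these numbers. The arrays numbered 2 were compared with those numbered 1, with 1 array of each siRNA group on each side. What the number stands for is not given in the sources used here. Glycolysis and hypoxia genes were higher in the arrays numbered 2: the median log2 difference was 0.61 for the 26 glycolysis genes, 0.52 for the 10 hypoxia genes and 0.02 over all features. Of the 36 genes 33 were positive, beside 10979 of 20726 features. The median of the hypoxia genes came mainly from the siErbB4 pair (0.97), that of the siScr pair being 0.02. Aldoc, Tpi1, Pgk1, Pgam2, Pdk1, Hk1, Eno3 and Bnip3 passed the test, all higher in number 2, by 1.55-fold (Eno3) to 3.62-fold (Bnip3).

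These 8 of 36 genes (22.2%) compare with 1084 of 20726 features called in either direction (5.23%), of which 600 were higher (2.89%) and 484 lower (2.34%), and 0 of the 36 were lower. In 26 genes (72.2%) both arrays numbered 2 lay above both numbered 1, beside 29.4% of all features, and in 0 below, beside 26.0%. An unadjusted p under 0.05 was reached by 21 of the 36 and by 4767 features, and a difference of 1 or more by 10 of the 36 and by 2.59% of features. Most or all of the 8 calls were lost with any 1 array left out, which leaves 1 array on a side. With arrays left out in turn the median ranged from 0.49 to 0.70 for the glycolysis genes. For the hypoxia genes it ranged from 0.19 to 0.84. Without a filter on dim probes 0 were called, and with quantile normalization 3 (Aldoc, Pgam2 and Pdk1), the 8 differences staying positive in each of these settings.

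**Figure D3:**
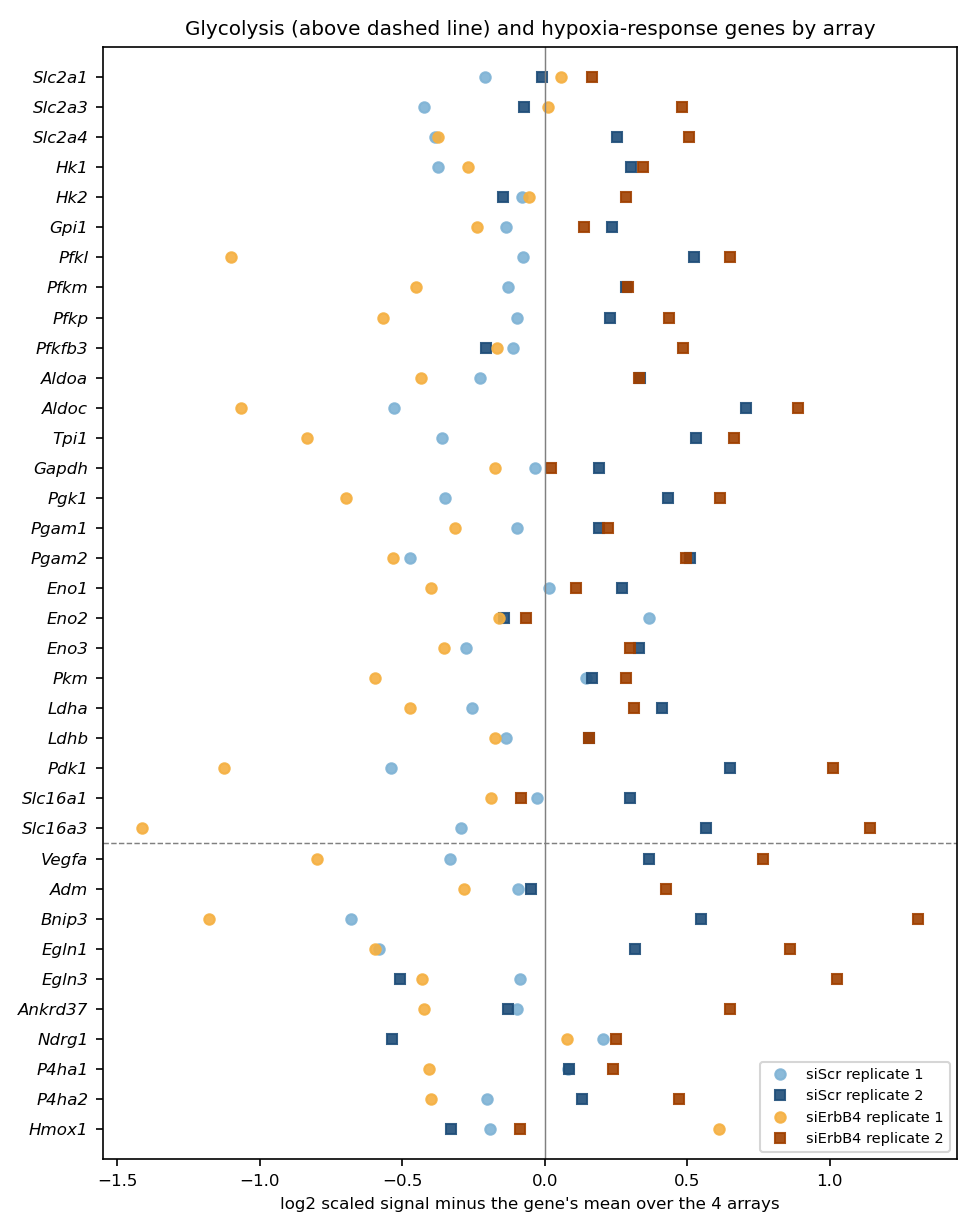
Scaled log2 signal of each gene on each of the 4 arrays minus the gene's mean over them (x axis), with light circles for the arrays numbered 1 and dark squares for those numbered 2. The squares lie to the right of the circles without overlap in 26 of 36 rows, and siErbB4 1 is leftmost in most of these rows.

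At glucose entry the isoforms differed in size. Hk1, the widespread hexokinase, was measured at 4.29 in siScr 1, 4.97 in siScr 2, 4.39 in siErbB4 1 and 5.01 in siErbB4 2. Both arrays numbered 2 were higher by a similar amount, 0.68 in siScr and 0.61 in siErbB4, and the difference of 0.65 ± 0.11 (SE, n = 2 per number) passed the test (limma adjusted p = 0.0492). Hk2 had a difference of 0.14 ± 0.17 with overlapping numbers. Slc2a4 had 0.76 ± 0.13, without overlap but with an adjusted p of 0.0518, while Slc2a1 had 0.16 ± 0.15 and Slc2a3 0.41 ± 0.25. Gpi1, which converts glucose 6-phosphate to fructose 6-phosphate, had 0.37 ± 0.11 with no overlap and did not pass (adjusted p = 0.147).

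At the committed step none of the phosphofructokinase genes passed the test, although the numbers did not overlap for any of the 3 subunit genes. Pfkl, the liver-type subunit, lay at 0.98 and 1.58 in siScr 1 and 2 and at -0.04 and 1.71 in siErbB4 1 and 2. Its lowest value was in siErbB4 1, and it had a difference of 1.18 ± 0.35 (adjusted p = 0.143). The muscle subunit Pfkm had 0.58 ± 0.15 and the platelet subunit Pfkp 0.66 ± 0.20. Pfkfb3, which makes the fructose 2,6-bisphosphate that activates the enzyme, was at 0.65, 0.55, 0.60 and 1.25 in siScr 1, siScr 2, siErbB4 1 and siErbB4 2, so that only siErbB4 2 stood apart.

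The aldolases split fructose 1,6-bisphosphate into triose phosphates. Aldoc, best known as the brain isoform, was measured at 1.25 in siScr 1, 2.48 in siScr 2, 0.71 in siErbB4 1 and 2.66 in siErbB4 2. Both arrays numbered 2 were far above both numbered 1, and the difference of 1.60 ± 0.21 (3.02-fold, limma adjusted p = 0.0318, interval 1.04 to 2.15) was rank 102 from the top of all features. Aldoa, the muscle isoform, had 7.45, 8.01, 7.24 and 8.01 in the same order, a difference of 0.66 ± 0.12 with an adjusted p of 0.0588. Tpi1, triose phosphate isomerase, which interconverts the products, had 5.15, 6.04, 4.68 and 6.18, and rose by 1.19 ± 0.19 (2.29-fold, adjusted p = 0.0452) in number 2.

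In the lower part of the pathway called and uncalled enzymes alternated. Gapdh had 7.67 and 7.90 in siScr and 7.53 and 7.73 in siErbB4, a difference of 0.21 ± 0.13, without overlap and not called. Its 7 probes ranged from 0.21 to 0.67, and the brightest, which stood for the gene, was the lowest of them. Pgk1, the X-linked phosphoglycerate kinase that makes the first ATP of the payoff phase, had 5.89 and 6.67 in siScr and 5.54 and 6.85 in siErbB4. That is a 2.07-fold difference, 1.05 ± 0.16 on the log2 scale (limma adjusted p = 0.0429). Pgam2, the muscle phosphoglycerate mutase, had 4.49 and 5.47 in siScr and 4.43 and 5.46 in siErbB4. The siRNA groups matched closely in both numbers, and its difference of 1.00 ± 0.11 (2.01-fold) had the lowest adjusted p of the set, 0.0244. The widespread mutase Pgam1 had 0.41 ± 0.13, without overlap and not called (adjusted p = 0.148).

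Among the enolases the muscle isoform Eno3 passed the test, at 4.92 and 5.53 in siScr and 4.84 and 5.50 in siErbB4, a difference of 0.63 ± 0.11 (adjusted p = 0.0492). Eno1, the widespread isoform, had 0.38 ± 0.18, and the neuronal isoform Eno2 was the 1 glycolysis gene with a negative value, -0.21 ± 0.20, its highest array being siScr 1 at 0.75. Pkm had 4.83, 4.85 and 4.97 in siScr 1, siScr 2 and siErbB4 2, and 4.09 in siErbB4 1. Only siErbB4 1 stood apart, and the difference of 0.45 ± 0.27 did not pass.

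Genes that decide the fate of pyruvate showed some of the largest differences. Pdk1, the HIF-induced kinase that inactivates pyruvate dehydrogenase, was measured at -0.77 in siScr 1, 0.43 in siScr 2, -1.35 in siErbB4 1 and 0.79 in siErbB4 2. It was higher in number 2 in both groups, 3.17-fold or 1.66 ± 0.25 (limma adjusted p = 0.0384, interval 1.02 to 2.31). Slc16a3 (MCT4), the lactate exporter of glycolytic cells, had 3.27, 4.13, 2.15 and 4.71 in the same order. Its difference of 1.71 ± 0.42 was larger still, and it did not pass the test (adjusted p = 0.101). Its siRNA groups lay far apart within each number, siErbB4 minus siScr being -1.12 in number 1 and 0.57 in number 2. Ldha, the isoform of lactate dehydrogenase that favours lactate, had 0.73 ± 0.13 (adjusted p = 0.0539), with its 3 probes between 0.73 and 1.36, and Ldhb, the heart isoform, had 0.31 ± 0.10.

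Of the hypoxia genes Bnip3, a mitochondrial outer membrane protein that promotes removal of mitochondria, passed the test. It was measured at 3.19 in siScr 1, 4.42 in siScr 2, 2.69 in siErbB4 1 and 5.18 in siErbB4 2. The difference of 1.86 ± 0.32 (3.62-fold, limma adjusted p = 0.0492, interval 1.03 to 2.68) was rank 44 of all features from the top, and its 3 probes lay between 1.86 and 1.93. With the mean of its probes in place of the brightest it was no longer called. Vegfa, the growth factor for blood vessels, had 0.74, 1.44, 0.27 and 1.84, a difference of 1.13 ± 0.23 without overlap (adjusted p = 0.0662). Egln1, the main HIF prolyl hydroxylase, had -2.18, -1.28, -2.19 and -0.74, a difference of 1.18 ± 0.21 (adjusted p = 0.0512).

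The other hypoxia genes did not pass. P4ha2 and P4ha1, collagen prolyl hydroxylases, had 0.60 ± 0.17 and 0.32 ± 0.20, and Adm, the vasodilator peptide adrenomedullin, had 0.38 ± 0.20. Egln3 (-2.50, -2.92, -2.84 and -1.39) and Ankrd37 (-0.39, -0.42, -0.71 and 0.36), a small ankyrin repeat protein, were set apart by siErbB4 2 alone. Ndrg1, a stress-responsive differentiation gene, was lowest in siScr 2 at -0.77, and Hmox1 had -0.42 ± 0.29, the lowest value of the set.

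The difference between numbers was not equal in both siRNA groups. From array 1 to array 2 the median of the 36 genes differed by 0.34 in siScr and by 0.75 in siErbB4, and it was larger in the siErbB4 pair in 31 of 36 genes, beside 46.1% of all features. For the glycolysis genes the medians were 0.39 and 0.70, and for the hypoxia genes 0.02 and 0.97. Slc16a3 differed by 0.86 in siScr and 2.55 in siErbB4, Bnip3 by 1.22 and 2.49, and Pfkl by 0.60 and 1.75, whereas Pgam2 differed by 0.98 and 1.03 and Hk1 by 0.68 and 0.61. Seen the other way, siErbB4 lay below siScr in number 1 in 30 genes, beside 10414 of 20726 features. It lay above siScr in number 2 in 27 genes, beside 9234 features. Both held in 21 of 36 genes, beside 16.6% of all features. With 1 array in each combination there is no residual spread, so whether the siRNA groups differ in this was not tested. Both siRNA pairs showed a higher value in number 2 in 29 genes, both a lower in 1 (Hmox1), and 6 had opposite signs. Shares over all features were not computed for these 3 counts.

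**Figure D4:**
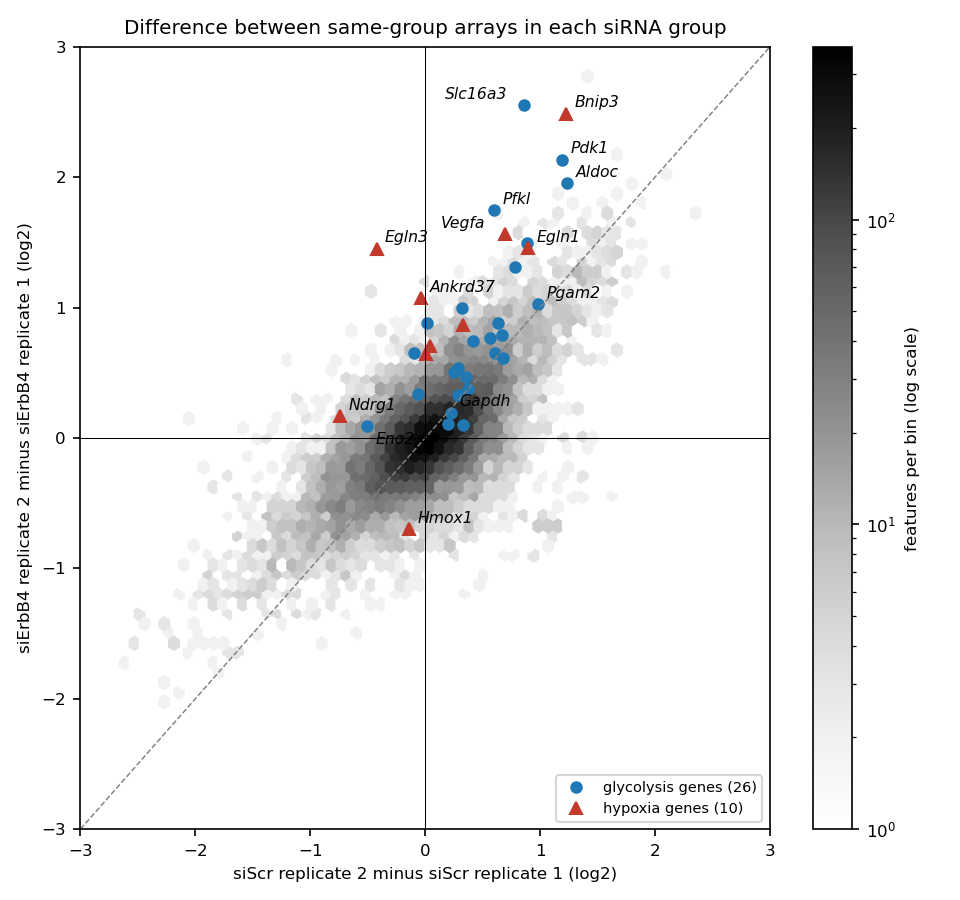
Difference between array 2 and array 1 in siScr (x axis, log2) against that in siErbB4 (y axis, log2), with all features as grey hexagons (log colour scale, 34 features beyond 3 on an axis not shown) and the glycolysis and hypoxia genes as coloured points. Slc16a3 (0.86 and 2.55), Bnip3 (1.22 and 2.49) and 29 other genes lie above the dashed line of equal differences.

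Isoforms of a step were also compared as ratios within an array, over 16 pairs. Aldoa over Aldoc was lower in number 2 by a log2 difference of -0.93, Pgam1 over Pgam2 by -0.59 and Eno1 over Eno3 by -0.25. The muscle mutase and enolase had larger differences than their widespread partners. The muscle subunit Pfkm had a smaller one than Pfkl (Pfkl over Pfkm, 0.60). Aldoa, Pgam1 and Eno1 also had the brighter probes of their pairs, and the brightest of the 7 Gapdh probes had the smallest difference. In other pairs, such as Hk1 over Hk2 and Ldha over Ldhb, the brighter gene had the larger difference. Among the 3 probes of Ldha, however, the brightest, which stood for the gene, had 0.73, and the dimmer ones had 1.36 and 1.34. The part of probe brightness in these ratios was not tested. For the lactate carriers Slc16a1 over Slc16a3 differed by -1.49, and for the transporters Slc2a1 over Slc2a4 by -0.60. Hk1 over Hk2 differed by 0.51 and Ldha over Ldhb by 0.42, and Pfkm over Pfkp by -0.08. The ratios did not overlap between the numbers in 13 of 16 pairs. Of single features, 29.4% were higher and 26.0% lower in number 2 without overlap. Between the siRNA groups 2 pairs did not overlap (Slc2a1 over Slc2a3, -0.27, and Slc2a3 over Slc2a4, 0.36), beside 29.0% of single features. The share over other gene pairs was not computed, and some of the 16 pairs share a gene. The exact two-sided permutation test cannot go below 0.333. Many glycolytic genes, Gapdh among them, have near-identical processed pseudogenes, and how far these probes read other copies was not tested.

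Other genes of the same pathways were read from lists drawn up from general knowledge. Of 13 tested further genes of glucose uptake and glycolysis 0 were called between the numbers by limma, with a median of -0.08, and the lowest p belonged to Hkdc1 (1.49) and Gpd2 (0.44). Of 20 genes of pyruvate and lactate fate 1 rose, the D-lactate dehydrogenase Ldhd (0.98), and the median was 0.31. Ldhd was dim, at -5.62 and -4.67 in siScr 1 and 2 and -5.64 and -4.63 in siErbB4 1 and 2. Of 16 genes of the pentose phosphate pathway and glycogen 4 rose and 0 fell, all 4 of glycogen handling: the phosphorylases Pygl (1.49) and Pygm (0.89), the branching enzyme Gbe1 (0.74) and Ugp2 (0.69), which makes UDP-glucose. The median of that list was 0.05. Pygl was the clearest of them, at 0.93 and 2.29 in siScr 1 and 2 and 0.90 and 2.51 in siErbB4 1 and 2. The siErbB4 minus siScr medians of the 3 lists were -0.02, 0.04 and -0.02, with 0 called. The lowest p in each list belonged to Bpgm (-0.22) and Slc2a10 (-0.42), to Fbp2 (0.80) and Ldhc (0.61), and to Pgls (-0.31) and Pgd (-0.21). Fbp2 and Ldhc were dim on every array, with highest values of -4.24 and -5.03, both in siErbB4 2.

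The oxygen-sensing genes and further hypoxia targets went different ways. Of 16 oxygen-sensing genes 2 rose in number 2, Hif3a (1.19), an alpha subunit often inhibitory to the others, and Arnt2 (0.80), a partner subunit, and the list's median was 0.13. Hif1a itself had 0.31 ± 0.11 and was not called. Of 37 further hypoxia targets 3 rose and 3 fell, with a median of -0.04. Those that rose were Selenbp1 (1.94), Car9 (1.02), a carbonic anhydrase of the cell surface, and Tfrc (0.87), the transferrin receptor. Car9 was dim, from -5.77 in siErbB4 1 to -4.60 in siScr 2. Those that fell included Igfbp3 (-1.65), an IGF-binding protein, and Edn1 (-1.02), the vasoconstrictor endothelin. Igfbp3 stood at -0.05 and -0.02 in siScr 1 and siErbB4 1 and at -1.68 and -1.67 in siScr 2 and siErbB4 2, the siRNA groups nearly coinciding. Selenbp1, Edn1 and Hif1a, and further on Kdr and Dppa5a, were named after their values were seen. Of 11 NRF2 targets, the list that shares Hmox1's second inducer, 0 rose and 3 fell (Osgin1, -1.62, Abcc1, -0.87, and Srxn1, -0.76), with a median of -0.39. Between the siRNA groups 0 genes of these 3 lists were called, and the medians were 0.08, 0.02 and 0.10. The lowest p belonged to Elob (-0.20) and Vhl (0.24), to Mt1 (0.32) and Plod1 (-0.33), and to G6pdx (-0.33) and Txnrd1 (0.15).

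Markers of cell types and of proliferation moved with the replicate number as well. Of 10 proliferation genes 7 rose, with a median of 1.24. Among them were Mki67 (1.56), Top2a (1.37), Cdk1 (1.2) and Aurkb (1.31), the last of them dim, from -5.60 in siScr 1 to -4.10 in siErbB4 2. The summed signal of the 10 genes, in multiples of the array's 75th percentile, was 30.2 and 37.9 in siScr 1 and siErbB4 1. In siScr 2 and siErbB4 2 it was 68.4 and 72.1. Of 14 cardiomyocyte markers 4 rose, the oxygen-binding protein Mb (1.23), Tnni3 (0.97), Nppa (1.31) and Ryr2 (0.69), and 0 fell, with a median of 0.60 and sums of 1194 and 1155 in number 1 and 1682 and 1514 in number 2. That median is close to that of the glycolysis genes.

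Fibroblast and matrix markers lay the other way. Of 14 fibroblast and matrix markers 3 fell, Col1a1 (-2.27), Postn (-1.89) and Pdgfra (-0.73), with a median of -1.31 and sums of 46.7 and 26.6 in number 1 and 12.5 and 9.75 in number 2. Of 5 smooth muscle markers 2 fell, Acta2 (-1.22) and Tagln (-1.04), which carry the list's sums of 548 and 438 against 259 and 249.9. The list's median was -0.10, and Smtn (0.41, without overlap) and Myocd (0.30) had positive differences. Neural markers had 0 of 5 called (lowest p at Ncam1, -0.54, and Tubb3, -1.33) and a median of -0.22, with sums of 26.2 and 19.0 against 14.8 and 12.7. Endothelial markers had 0 of 6 called (lowest p at Cdh5, -1.51, and Esam, -0.82) and a median of -0.64. Their sums, 3.53 and 3.41 in number 1 and 4.60 and 3.56 in number 2, went the other way, but were carried by Kdr (0.30). Kdr was the 1 endothelial marker with a positive difference, and 5 were negative. Of 6 endoderm markers 1 rose (Afp, 0.65), with a median of 0.59. Of 5 macrophage and blood markers 1 rose (Lyz2, 3.24), but the median was -0.15, and Adgre1 (-2.35) and Fcer1g (-1.74) were lower in number 2 without overlap and were not called. The sums of both lists overlapped between the numbers. Emcn, Apoa1 and Map2 were not above background on any array. The part of these cell types and of proliferation in the differences of the glycolysis and hypoxia genes was not tested.

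Between the siRNA groups 0 marker genes were called. The summed signal of the pluripotency markers was 28.2 and 29.6 in siScr and 44.0 and 33.2 in siErbB4, without overlap. Most of each sum came from Dppa5a, at 4.22 and 4.22 in siScr and 4.87 and 4.43 in siErbB4. The list had a median log2 difference of 0.48, with 11 of 12 markers positive. Fibroblast and matrix markers had a median of -0.53, with 14 of 14 negative, and macrophage and blood markers a median of -0.42, with 5 of 5 negative. Proliferation genes had a median of 0.17, with 10 of 10 positive. Over all 20726 features 9773 were positive and 10953 negative. The other medians were -0.06 for cardiomyocyte, -0.19 for smooth muscle, -0.34 for endothelial, 0.20 for endoderm and -0.15 for neural markers. The part of these markers in the small differences of the glycolysis and hypoxia genes was not tested.

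**Figure D5:**
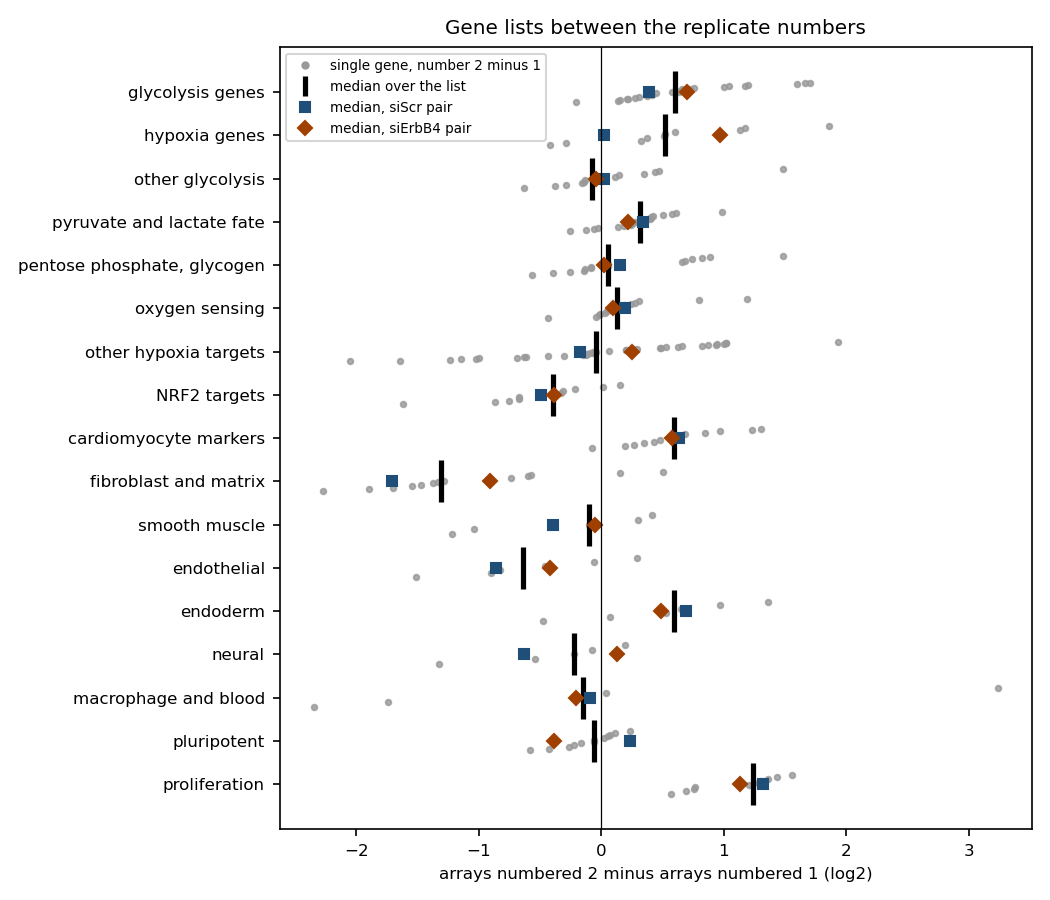
Log2 difference between the arrays numbered 2 and 1 (x axis) for each gene (grey points) of the glycolysis and hypoxia genes and of 15 other lists, with the list's median (bar) and the medians within siScr (square) and siErbB4 (diamond). Glycolysis genes (0.61), cardiomyocyte markers (0.60) and proliferation genes (1.24) lie right of 0, and fibroblast and matrix markers (-1.31) left of it.

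The spike-in controls differed little between the numbers. Across 7 spike-in probes, RNA of known amount added to every sample, the median absolute difference between the numbers was 0.083 and the largest 0.21. The differences of all 8 genes called were larger, but these genes were selected by that difference. Those of Slc2a1 (0.16) and Hk2 (0.14), not called, were inside the spike-in range. Fitting the siRNA group as a term gave 8 genes called, 5 of them the same: Hk1 (limma adjusted p = 0.0517), Eno3 (0.0530) and Bnip3 (0.0502) were no longer called, and Slc2a4 (0.0467), Ldha (0.0431) and Egln1 (0.0377) were, beside 1516 features called (7.31%), 780 of them higher (3.76%).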

How the data were processed

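RNA of 4 samples was measured on 1-colour (Cy3) Agilent arrays. The submitters' processing notes name Agilent Feature Extraction 10.7.1.1 as the reader. A spot's processed intensity is background-subtracted and detrended inside its array, without scaling between arrays, per the file headers, and the flags and median intensity of spot and local background were deposited with it. A value table that the authors deposited holds log2 values, with column medians of -3.81, -3.83, -3.84 and -3.86 in siScr 1, siScr 2, siErbB4 1 and siErbB4 2. It matched the scaled log2 signal described next to within 0.313, so its scale, centring and direction are known, and it served as an alternative.

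Of 44397 spots, 1377 control spots and 131 to 179 outlier-flagged spots per array were left out, and replicate spots were averaged. Each array's processed signals were divided by their 75th percentile and put on the log2 scale. Of 39429 probes 25690 were kept, those clearly above background in every array of either siRNA group. Probes were named through RefSeq accessions in a table of assembly GRCm38.p6 (27508 had a symbol), and the brightest probe of a gene was used. The array's annotation names build mm9.

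Both comparisons used limma 3.58.1 in R 4.3.3 (lmFit, eBayes, two-sided, 2 residual degrees of freedom) over all 20726 features, calling those with a Benjamini-Hochberg adjusted p under 0.05. They share the same 4 arrays. The scripts were tested on simulated data. The genes, the lists and the rule for names (all 36 genes, and per list up to 4 called genes, or the 2 with the lowest p) were chosen with earlier results of these data known, and 1 gene that the rule names is not reported here. The 4 arrays limit the precision of every value. Alternatives were normexp (offset 50), quantile normalization, other filters, the mean of probes, the deposited table, each array left out, and a term for the other factor.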

Additional observations from a re-analysis of the deposited data

Results flagged for a closer look

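In 6 of the 36 genes the arrays numbered 2 and 1 differed in opposite directions in the siRNA groups, lower in number 2 in siScr and higher in siErbB4. The log2 difference in siErbB4 was 0.34 for Hk2, 0.65 for Pfkfb3, 0.095 for Eno2, 1.45 for Egln3, 1.07 for Ankrd37 and 0.17 for Ndrg1. In siScr it was -0.06, -0.09, -0.51, -0.42, -0.03 and -0.74 in the same order. Each rests on 1 array per combination, and the difference between the siRNA groups was not tested. The siScr values of Hk2, Pfkfb3 and Ankrd37 were small, and the share of all features with opposite signs was not computed.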

How the results depend on the processing

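Between the replicate numbers 1084 features and 8 of the 36 genes were called. With normexp background correction the counts were 1876 and 16, without a filter on dim probes 0 and 0 (while every one of the 8 differences stayed positive), with quantile normalization 955 and 3, and with probes required to be above background on all 4 arrays 1457 and 13. With each array left out in turn they ranged from 0 to 1539 features and from 0 to 3 genes. The count was 73 features without siErbB4 2 and 0 without siScr 1 or siScr 2, and the cause was not tested. An array left out leaves 1 array on a side, assumed to vary like the others. The deposited table gave the same 8 genes, and the mean of probes 8 of which 7 were the same, Bnip3 being lost and Ldha gained. Medians between the numbers stayed positive in every setting run, with ranges over the arrays left out of 0.49 to 0.70 for the glycolysis genes and 0.19 to 0.84 for the hypoxia genes.

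Between the siRNA groups 0 features and 0 of the 36 genes were called by limma in every setting run. The replicate numbers were also fitted as a replicate block, which gave 0 features and 0 genes called. Deviations of same-numbered arrays correlated at 0.679, but there are only 2 numbers and the labels state no pairing. The medians ranged from -0.44 to 0.32 for the glycolysis genes and from -0.34 to 0.63 for the hypoxia genes as arrays were left out. Pgam2 changed sign with normexp (0.0082) and Ldhb with quantile normalization (0.031). The log2 difference changed sign with an array left out in 29 genes, over these ranges: Slc2a4 -0.31 to 0.57, Hk1 -0.27 to 0.41, Gpi1 -0.29 to 0.088, Pfkl -1.32 to 0.43, Pfkm -0.53 to 0.21, Pfkp -0.63 to 0.37, Pfkfb3 -0.0057 to 0.65, Aldoa -0.49 to 0.28, Aldoc -1.16 to 0.80, Tpi1 -0.92 to 0.58, Pgk1 -0.74 to 0.57, Pgam1 -0.36 to 0.18, Pgam2 -0.55 to 0.48, Eno2 -0.48 to 0.029, Eno3 -0.38 to 0.27, Pkm -0.75 to 0.13, Ldha -0.55 to 0.24, Ldhb -0.19 to 0.14, Pdk1 -1.18 to 0.96, Slc16a3 -1.55 to 1.00, Vegfa -0.82 to 0.75, Adm -0.21 to 0.50, Bnip3 -1.11 to 1.38, Egln1 -0.46 to 0.99, Egln3 -0.13 to 1.32, Ankrd37 -0.31 to 0.76, Ndrg1 -0.041 to 0.70, P4ha1 -0.49 to 0.16 and P4ha2 -0.36 to 0.51. Between the numbers it did so in 5: Hk2 -0.077 to 0.35, Pfkfb3 -0.068 to 0.63, Eno2 -0.47 to 0.057, Egln3 -0.25 to 1.28 and Ndrg1 -0.68 to 0.11. A slide block was not run, because all arrays lie on 1 slide.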

Other observations

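Marker genes with the lowest unadjusted p between the siRNA groups, none called by limma, were these, with the log2 difference siErbB4 minus siScr. They were Tcl1 (0.61) and Fbxo15 (0.56) of the pluripotency markers, Col6a2 (-0.72) and Ddr2 (-0.49) of the fibroblast and matrix markers, and Myl7 (-0.17) and Tnni1 (-0.25) of the cardiomyocyte markers. Among the smaller lists they were Cnn1 (-0.21) and Myocd (0.16) for smooth muscle, Plvap (-0.55) and Pecam1 (-0.18) for endothelium, and Krt18 (0.25) and Foxa2 (0.50) for endoderm. Neural markers gave Gfap (0.41) and Tubb3 (-0.71), macrophage and blood markers Itgam (-0.19) and Fcer1g (-0.92), and proliferation genes Pcna (0.29) and Cdc20 (0.21). Of the pluripotency markers, 0 of 12 were called between the replicate numbers, where the lowest p belonged to Dppa4 (-0.58) and Nanog (0.23).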
